A study of Homo sapiens with 6 samples.

Results

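The mRNAs of 10 lipid droplet coat and assembly genes were examined here in 22Rv1-ABHD5 cells. 22Rv1 is an established human prostate cancer line that grows without androgen, and here it holds an ABHD5 transgene on a lentiviral vector (pInducer20) that doxycycline (Dox) switches on, selected with G418. The genes were chosen by symbol, as PLIN1, PLIN2, PLIN3, PLIN4, PLIN5, CIDEB, CIDEC, FITM2, BSCL2 and AUP1, and all 10 were among the 27470 genes of the deposited count table. Both groups carry the vector: 3 libraries (labelled Control) came from cells grown without Dox and 3 (labelled OE, genotype overexpressing ABHD5) from cells grown with Dox, all for 48 h. Whether the line is a pool or a clone, and the Dox dose of these cultures, are not stated in the sources used here. Parent cells with Dox were not analysed here, so Dox and ABHD5 cannot be told apart. In bulk RNA, fewer cells of a kind and less RNA per cell cannot be told apart. The labels number the replicates but do not say that they were separate cultures, so p-values measure the spread between these libraries.

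Lipid droplets store triacylglycerol and sterol esters in a core that is covered by a phospholipid monolayer and a coat of proteins. Perilipins are the main coat family and limit how far lipases reach the core. FITM2 and seipin act in the membrane of the endoplasmic reticulum (ER), where droplets form, and CIDE proteins pass lipid from smaller to larger droplets. In the fed state perilipin 1 of adipocytes binds ABHD5 and keeps it from adipose triglyceride lipase (ATGL), the lipase that ABHD5 activates. Perilipin 2 and perilipin 3 are the coat proteins of most cells that are not adipocytes.

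Reads were taken from the 3ʹ end of poly(A) RNA, so that a count marks a transcript end and was not divided by transcript length. Levels are CPM, counts scaled to an equal library size after TMM normalization. Library totals ranged from 3394672 to 7271771 counts on genes. The share of listed reads that fell on no gene was 32.5% to 34.6% without Dox and 35.6% to 39.5% with Dox, and its part in the results below was not tested. ABHD5, the induced gene, had 63.5, 58.0 and 62.8 CPM without Dox and 125.9, 130.8 and 91.7 CPM with Dox, which checks the labels. Of 9 prostate epithelial markers, all 9 were detected and tested. Of 8 adipocyte markers, ADIPOQ, PPARG and CIDEA had 0 counts in every library, and LEP, FABP4 and LPL had at most 4 counts in any library. The other 2 were detected, CFD at 34.7 to 42.8 CPM and LIPE at 10.3 to 21.4 CPM without Dox.

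Of the 10 genes, 5 had enough counts to be tested and 3 of these differed between the conditions at an adjusted p under 0.05 (edgeR's quasi-likelihood test, Benjamini-Hochberg adjustment over 12233 genes). PLIN2 rose, PLIN3 and AUP1 fell, and PLIN5 and FITM2 did not pass the threshold. Over all genes tested, 25.5% passed, 11.9% as higher and 13.7% as lower with Dox, so that 46.4% of calls were higher, against 65.7% when libraries were scaled by their totals alone. Among the 5 tested members the median log2 fold change was 0.32, against 0.02 over all genes tested. This median is the value of FITM2, which did not pass the threshold, and it lies between the rise of PLIN2 and the falls of PLIN3 and AUP1. CPM did not overlap between the conditions for 4 of the 5, a pattern that 39.5% of all genes tested showed.

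The promoters of PLIN2 and PLIN3 are shown because these perilipin genes moved in opposite directions. RefSeq promoter windows were found for 10 of the 10 genes, 14 windows in all. The stretches below are the 250 bases before the annotated start, printed 5ʹ to 3ʹ on the strand of the gene, from GRCh38.p14 and credited to RefSeq. Capitals mark the letters CACGTG (an E-box), CCAAT or its reverse complement, and TATAAA or its reverse complement.
PLIN2, chr9:19127493-19127742, minus strand: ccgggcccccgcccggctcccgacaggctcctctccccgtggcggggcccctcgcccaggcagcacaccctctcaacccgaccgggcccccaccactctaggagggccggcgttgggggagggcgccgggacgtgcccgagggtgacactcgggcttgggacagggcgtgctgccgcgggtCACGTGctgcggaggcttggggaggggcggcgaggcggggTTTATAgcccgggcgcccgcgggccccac
PLIN3, chr19:4867668-4867917, minus strand: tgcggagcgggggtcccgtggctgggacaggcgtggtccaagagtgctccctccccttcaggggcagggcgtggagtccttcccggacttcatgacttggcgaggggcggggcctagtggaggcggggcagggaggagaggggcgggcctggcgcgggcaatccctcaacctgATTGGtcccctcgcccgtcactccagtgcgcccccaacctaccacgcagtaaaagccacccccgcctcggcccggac
In the PLIN2 window the E-box began 69 bases before the start and the reverse complement of TATAAA 29 bases before it. The E-box was in 1 of the 14 member windows and in 6.34% of the 35116 windows of all genes. TATAAA, on either strand, was in 2 of 14 and 10.7%. The PLIN3 window held a CCAAT box on the reverse strand, beginning 77 bases before the start, and no E-box. PLIN4 and PLIN5 had CCAAT boxes at nearly the same distance, 76 and 68 bases before their starts, and a CIDEB window held one too, so that CCAAT was in 4 of 14 windows against 32% of all windows. The letters AGGTCA, a single nuclear receptor site, were in 0 of 14 windows and in 12.1% of all windows. Longer elements that hold the E-box (CLEAR type), a direct repeat of AGGTCA (DR1, the PPAR type) and a sterol response element were also in 0 of 14, and in 0.308%, 0.0171% and 0.0342% of all windows. Letters this rare would be missing from most sets of 14 windows, so their absence says nothing particular about these genes. Only exact letters within 250 bases were searched, so variant or more distant elements would be missed. Both strands were searched for every motif, and the shorter letters also count where they lie inside the longer elements. A match to these letters is not a measured binding site.

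PLIN2 encodes adipophilin, which coats droplets in most cell types and is degraded when it is not bound to lipid. It had 29, 25 and 35 counts in replicates 1, 2 and 3 without Dox and 108, 96 and 204 counts with Dox. On the CPM scale these were 7.58, 7.75 and 6.11 without Dox and 23.5, 26.7 and 26.8 with Dox. Each library with Dox lay far above each library without it. The mean rose from 7.15 ± 0.902 CPM to 25.7 ± 1.89 CPM (SD, n = 3 each). On the log2 scale the rise was 1.86 ± 0.21 (standard error, SE), with an adjusted p of 4.659e-06 in edgeR's quasi-likelihood test. This is 3.64-fold, with a 95% interval of 2.68 to 4.94. Only 138 of the 12233 genes tested, or 1.13%, had a larger rise. The log2 fold change stayed between 1.74 and 1.98 in the 15 alternative settings and passed the threshold in each. The gene lies on chromosome 9 from 19108375 to 19149290 on the minus strand (GENCODE 44, hg38) and shares no exon base with another gene of the table.

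PLIN3 encodes TIP47, a coat protein that is stable in the cytosol and moves to newly formed droplets. It had 531, 565 and 841 counts without Dox and 572, 376 and 775 counts with Dox. These were 138.7, 175.2 and 146.8 CPM without Dox and 124.4, 104.6 and 101.8 CPM with Dox. The groups did not overlap, but replicate 1 with Dox lay nearer to the libraries without Dox than replicates 2 and 3 did. The mean was 153.6 ± 19.2 CPM without Dox and 110.3 ± 12.3 CPM with Dox (SD, n = 3 each). On the log2 scale the change was -0.48 ± 0.13 (SE; edgeR's quasi-likelihood test, adjusted p = 0.0143), or 1.39-fold lower with a 95% interval of 1.15 to 1.69. Without replicate 2 of the cells without Dox, the highest library, the log2 fold change was -0.38 and the call was lost (adjusted p = 0.0799, same test). It was also lost when libraries were scaled by their totals alone (-0.36, adjusted p = 0.0539, same test). A change of this size was common, as 30.6% of genes tested had a larger absolute log2 fold change. PLIN3 lies on chromosome 19 from 4838341 to 4867694.

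PLIN5 encodes the perilipin of oxidative tissues such as heart, where it links droplets to mitochondria. It had 30, 37 and 42 counts without Dox and 35, 40 and 108 counts with Dox, that is 7.84, 11.5 and 7.33 CPM against 7.61, 11.1 and 14.2 CPM. The groups overlapped, and replicate 3 with Dox, the deepest library, was the highest. The log2 fold change was 0.36 with a 95% interval of -0.23 to 0.94 (adjusted p = 0.378, edgeR's quasi-likelihood test), so that a fall to 0.854-fold and a rise to 1.92-fold both lie inside it. Without replicate 3 with Dox the log2 fold change was 0.090.

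**Figure D1:**
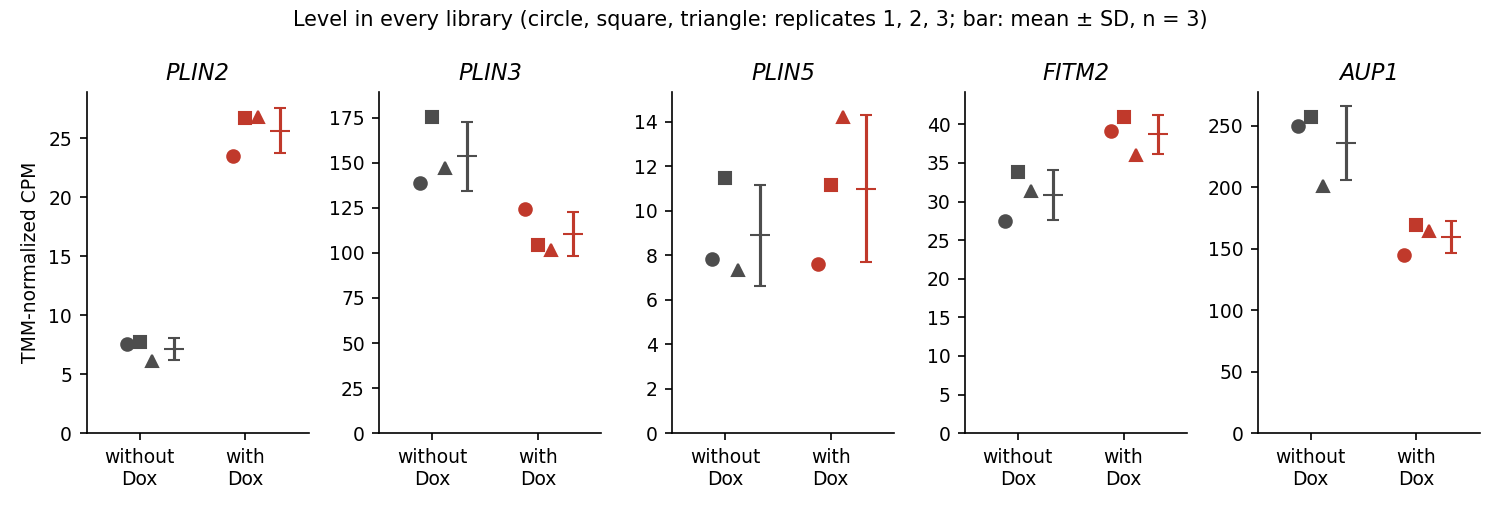
Level (CPM after TMM scaling, each vertical axis starting at 0) of the 5 tested genes in every library without Dox (grey) and with Dox (red), with the mean ± SD of 3 libraries beside the points. PLIN2 is 6.11 to 7.75 CPM without Dox and 23.5 to 26.8 with Dox, PLIN3 and AUP1 are lower with Dox, and the PLIN5 points overlap.

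The remaining perilipin genes were at the limit of detection. PLIN1, the perilipin of adipocytes, had 0, 0 and 1 counts without Dox and 1, 0 and 0 with Dox. PLIN4, which coats small droplets in adipocytes, had 0, 1 and 1 counts without Dox and 0, 1 and 2 with Dox. A count of 3 corresponds to 0.394 to 0.930 CPM in these libraries, so lower levels would not be detectable at this depth, and no fold was formed. This limit covers counting error only, as the reads carry no molecular identifiers. PLIN4, PLIN5 and PLIN3 lie in this order on chromosome 19, all on the minus strand, with 4044 bases between PLIN4 and PLIN5 and 303116 between PLIN5 and PLIN3. LRG1, which encodes a secreted glycoprotein and ends within 5 kb of the 5ʹ end of PLIN5, had a log2 fold change of 0.69 (adjusted p = 0.0355, edgeR's quasi-likelihood test). That call was lost with DESeq2 (adjusted p = 0.0619) and in edgeR's fits without any 1 of the libraries other than replicate 3 with Dox, with adjusted p up to 0.150.

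The make-up of the perilipin counts within a library does not depend on the scaling between libraries. Of the counts on the 5 perilipin genes, PLIN2 took 4.92%, 3.98% and 3.8% in the libraries without Dox and 15.1%, 18.7% and 18.7% in those with Dox. PLIN3 took 90.0%, 89.97% and 91.4% without Dox and 79.9%, 73.3% and 71.2% with Dox. PLIN5 took 4.57% to 5.89% without Dox and 4.89% to 9.92% with Dox. The count ratio of PLIN2 to PLIN3 was 0.0468 ± 0.00687 without Dox and 0.236 ± 0.0409 with Dox (SD, n = 3 each), and the ranges, 0.0416 to 0.0546 and 0.189 to 0.263, did not overlap. The summed perilipin level was 169.8 ± 21.8 CPM without Dox and 147.2 ± 7.39 CPM with Dox, with overlapping libraries. PLIN3 held most of these counts in every library, so the sum mainly follows PLIN3 and could hardly show the rise of PLIN2. It also adds genes whose yield of reads may differ, so no conclusion is drawn from it. Shares were compared between libraries and not between genes, since the yield of 3ʹ reads can differ from gene to gene.

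**Figure D2:**
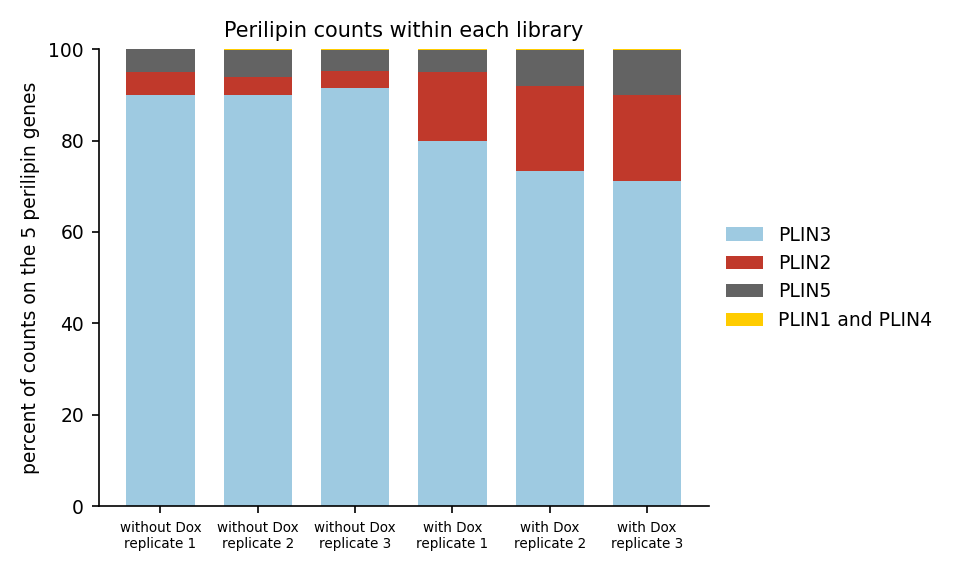
Percent of the counts on the 5 perilipin genes that fell on each of them, for every library. PLIN2 (red) takes 3.8% to 4.92% without Dox and 15.1% to 18.7% with Dox, and PLIN3 (light blue) takes 89.97% to 91.4% without Dox and 71.2% to 79.9% with Dox.

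FITM2 and AUP1 act at the ER. FITM2 encodes an ER membrane protein that is needed for droplets to bud from the ER. It had 105, 109 and 180 counts without Dox and 180, 147 and 274 with Dox, or 27.4, 33.8 and 31.4 CPM against 39.1, 40.9 and 36.0 CPM. Each library with Dox lay above each library without it. The mean was 30.9 ± 3.22 CPM without Dox and 38.7 ± 2.49 CPM with Dox (SD, n = 3 each). The log2 fold change of 0.32 (standard error 0.15) did not pass the threshold over all genes (adjusted p = 0.142, edgeR's quasi-likelihood test), and its 95% interval, 0.996-fold to 1.57-fold, just includes no change. It passed under 1 of the 15 alternatives, scaling by library totals alone. FITM2 lies on chromosome 20 from 44302840 to 44311202, with no gene of the table within 5 kb.

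AUP1 encodes a droplet and ER protein that brings the ubiquitin-conjugating enzyme UBE2G2 to the droplet surface and takes part in the degradation of misfolded ER proteins. It had 958, 829 and 1154 counts without Dox and 667, 610 and 1251 with Dox. These were 250.2, 257.1 and 201.4 CPM without Dox and 145.0, 169.8 and 164.3 CPM with Dox, with no overlap. The mean was 236.3 ± 30.3 CPM without Dox and 159.7 ± 13.0 CPM with Dox (SD, n = 3 each). On the log2 scale the change was -0.56 ± 0.13 (SE; edgeR's quasi-likelihood test, adjusted p = 0.00421), or 1.48-fold lower with a 95% interval of 1.22 to 1.79. The call held in each of the 15 alternatives, and 24.4% of genes tested had a larger absolute log2 fold change. AUP1 lies on chromosome 2 from 74526645 to 74529760, and 165 exon bases at its 5ʹ end overlap HTRA2, which is read from the opposite strand. HTRA2 had 1 to 7 counts in a library and did not pass the filter. The last 500 bases of the AUP1 transcript, where 3ʹ reads fall, share nothing with another gene of the table. DQX1, which begins 364 bases beyond the 3ʹ end of AUP1, was at 9.49 ± 1.51 CPM without Dox and 13.4 ± 3.65 CPM with Dox (SD, n = 3 each; adjusted p = 0.141, same test).

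**Figure D3:**
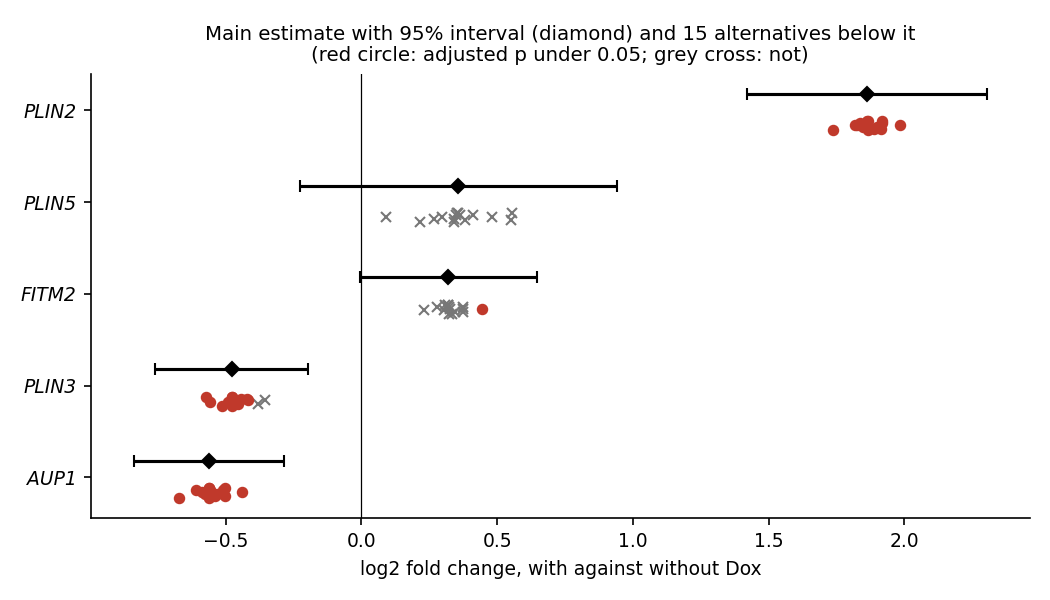
Log2 fold change, with against without Dox, of the 5 tested genes as reported (diamond, 95% interval) and under 15 alternative settings (small symbols, red where the adjusted p is under 0.05). PLIN2 stays between 1.74 and 1.98 and AUP1 between -0.67 and -0.44 with every symbol red, while PLIN5 reaches down to 0.090 with no red symbol.

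The genes of seipin and the CIDE proteins could not be tested. Seipin, the product of BSCL2, forms rings in the ER that hold the neck of a growing droplet, and its loss causes a congenital lipodystrophy. BSCL2 had 0 counts in all 6 libraries. The gene lies on chromosome 11 from 62689289 to 62709845, and a read-through gene, HNRNPUL2-BSCL2, runs through it on the same strand. The read-through gene also had 0 counts in every library. In GENCODE 44, 74.0% of the bases in the last 500 of the BSCL2 coding transcripts lie in exons of other genes of the table, with 1572 of 2798 bases in the read-through gene. Ambiguous reads were 3.05% to 3.37% of listed reads, and the settings of the counter are not stated. Whether BSCL2 reads are among the ambiguous ones was not tested, so the 0 counts do not say that the mRNA was absent. HNRNPUL2, the gene upstream, was counted, with 172.6 ± 19.95 CPM without Dox and 136.2 ± 7.77 CPM with Dox (SD, n = 3 each; log2 fold change -0.34, adjusted p = 0.0609, edgeR's quasi-likelihood test).

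CIDEC, the CIDE protein of white fat, and CIDEB, that of liver, where it also acts on lipoprotein particles, each had 1 count in replicate 3 without Dox and 0 in the other 5 libraries. CIDEC lies on chromosome 3 from 9866711 to 9880255 and shares no exon base with another gene of the table. CIDEB lies on chromosome 14 from 24305187 to 24311430, and all of its exon bases are also exon bases of NOP9 or LTB4R2 on the opposite strand in GENCODE 44. NOP9 was counted at 52.1 ± 8.41 CPM without Dox and 46.6 ± 1.27 CPM with Dox (SD, n = 3 each), with overlapping libraries. LTB4R, a leukotriene receptor gene 20 bases away, was called higher (log2 fold change 0.85, adjusted p = 0.0336, edgeR's quasi-likelihood test), although its libraries overlapped and the call was lost without replicate 2 or 3 of the cells without Dox or replicate 2 or 3 with Dox (adjusted p = 0.0581, 0.146, 0.0703 and 0.140, same test). It was also lost on the deposited signal (adjusted p = 0.0679, limma). Whether the counting used strand is not stated, so a level of CIDEB cannot be separated from its partners. CIDEC has no such overlap in GENCODE 44, but the annotation used for the counting is not given. PLIN1, on chromosome 15 from 89664367 to 89679427, overlaps PEX11A without a shared exon base. All 10 genes lie on the minus strand.

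Around these genes, 4 of the 6 tested lipolysis genes rose and 0 fell, from a list of 8, where 11.9% of all genes tested rose. Among the 4 was ABHD5 itself, whose transgene is induced. The median log2 fold change of the 6 was 0.71. PNPLA2, which encodes ATGL, went from 35.3 ± 6.13 to 57.9 ± 15.4 CPM, MGLL, the monoacylglycerol lipase gene, from 13.7 ± 0.690 to 25.9 ± 5.10 CPM, and LIPA, the lysosomal acid lipase gene, from 31.1 ± 6.60 to 49.9 ± 3.66 CPM (SD, n = 3 each). Their adjusted p were 0.00752, 0.00203 and 0.00585 (edgeR's quasi-likelihood test). LIPE, the hormone-sensitive lipase gene, and HILPDA, which encodes an inhibitor of ATGL, did not pass the threshold, with log2 fold changes of -0.18 and -0.27 (adjusted p = 0.648 and 0.108, same test). The second ATGL inhibitor gene, G0S2, had 1, 1 and 2 counts without Dox and 0 with Dox, and PNPLA3 was also too low to test.

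Among 36 other genes of droplet surface and biogenesis, 29 were tested, 6 rose and 4 fell, with a median log2 fold change of 0.14. These 10 of 29 stand beside 25.5% of all genes tested. HSD17B11, a dehydrogenase that sits on droplets, rose from 70.4 ± 10.8 to 198.8 ± 9.44 CPM, or by 1.51 on the log2 scale (adjusted p = 3.140e-07, edgeR's quasi-likelihood test). ACSL3, the acyl-CoA synthetase of nascent droplets, fell from 501.9 ± 43.6 to 213.0 ± 21.5 CPM, with -1.24 (adjusted p = 1.892e-06, same test). VPS13A, a lipid transfer protein gene at ER contacts, had -1.08, and METTL7A, an ER and droplet methyltransferase gene, had -0.86 (adjusted p = 3.634e-05 and 2.304e-04, same test). These 4 calls held in each alternative. AIFM2, which encodes a coenzyme Q reductase found on droplets, rose from 1.59 ± 0.219 to 4.21 ± 0.554 CPM. Its call was lost without replicate 2 or 3 of the cells without Dox or replicate 1 with Dox, with adjusted p of 0.0535, 0.0813 and 0.0546 (same test). With replicate 1 or 2 of the cells without Dox or replicate 1 with Dox left out, 5 or 6 genes of the list passed. MCTP2, which encodes a calcium-binding ER membrane protein, had a log2 fold change of 0.65 (adjusted p = 0.0490, same test). It did not pass when a library other than replicate 3 of the cells without Dox was left out, with adjusted p of 0.0514 to 0.172 (same test), and also with no filter, with DESeq2 and on the deposited signal.

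In triacylglycerol synthesis, 16 of 22 genes were tested, 1 rose and 2 fell, against 25.5% of all genes tested that passed in either direction. AGPAT2, an acyltransferase gene of the ER, rose from 14.2 ± 3.28 to 42.3 ± 9.97 CPM, or by 1.61 on the log2 scale (adjusted p = 2.313e-05, edgeR's quasi-likelihood test). DGAT1 and DGAT2, whose enzymes add the last acyl chain, had 0.24 and 0.05 (adjusted p = 0.253 and 0.930, same test). Without replicate 2 with Dox, 5 genes of this list passed, and 6 with the replicate number as a block. CTDNEP1 and SOAT1 were the genes that fell, by 0.45 and 0.40 on the log2 scale (adjusted p = 0.0113 and 0.0233, same test). SOAT1, a sterol esterification gene, lost its call without replicate 1 or 3 of the cells without Dox or replicate 3 with Dox (adjusted p = 0.0782, 0.0727 and 0.0511, same test). CTDNEP1, the phosphatase gene that activates lipins, kept its call in each fit that left out a library, but only just (adjusted p up to 0.0499, same test). Under library totals alone neither passed (adjusted p = 0.0965 for SOAT1 and 0.0506 for CTDNEP1, same test).

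A hand-compiled list held 12 genes of ER-associated degradation, in which AUP1 takes part, and all were tested. Of these, 5 rose, 0 fell and 7 did not pass the threshold, where 11.9% of all genes tested rose and 13.7% fell. The median log2 fold change of the 12 was 0.24, and their difference from AUP1 was not tested. OS9, a lectin of this pathway, had 0.83, SEL1L, the scaffold of the ubiquitin ligase, 0.61, and UBXN4, which recruits VCP, 0.61 (adjusted p = 5.252e-04, 0.00203 and 0.00240, edgeR's quasi-likelihood test). ERLEC1, a further lectin gene, had 0.46 (adjusted p = 0.0160, same test). It lost its call without replicate 1 with Dox, or replicate 1 or 2 of the cells without Dox (adjusted p = 0.0716, 0.0549 and 0.0600, same test). Without replicate 1 with Dox, 3 genes of the list passed. UBE2G2, the enzyme that AUP1 binds, was at 155.2 ± 4.76 CPM without Dox and 147.3 ± 9.33 CPM with Dox (SD, n = 3 each; adjusted p = 0.692, same test).

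**Figure D4:**
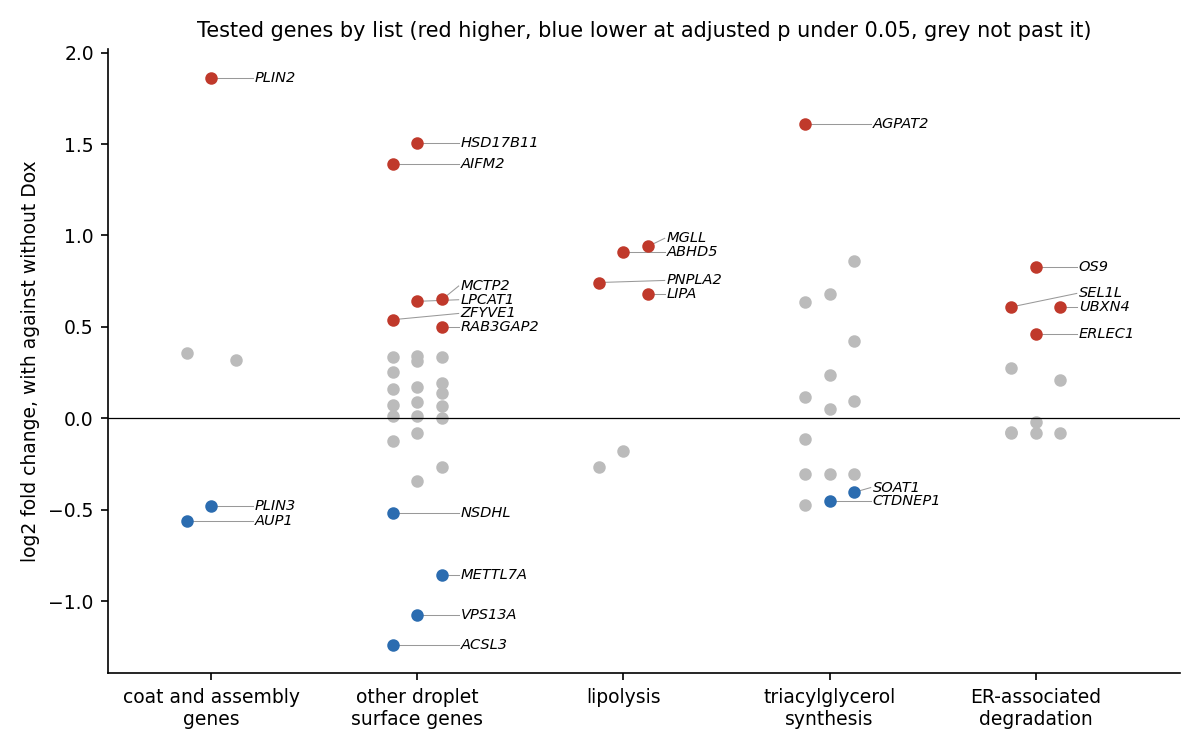
Log2 fold change, with against without Dox, of the tested genes in the coat and assembly genes and 4 lists around them. A gene is 1 point in each list that holds it, so HILPDA and FAF2 appear under each of their lists. Names stand at those past an adjusted p of 0.05, and 1 gene is not plotted. PLIN2 at 1.86 lies above HSD17B11 at 1.51 and AGPAT2 at 1.61, and ACSL3 at -1.24 is the lowest point.

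Some markers of the cell line itself moved with the condition. Of the 9 prostate epithelial markers, 5 fell and 0 rose, where 13.7% of all genes tested fell. Among the 5 were KLK2, a kallikrein gene (log2 fold change -1.69, adjusted p = 0.00145, edgeR's quasi-likelihood test), TMPRSS2, a membrane protease gene (-1.06), and KRT18, a keratin gene (-0.57). The other 4, HOXB13, FOXA1, KLK3 and KRT8, did not pass the threshold (-0.07, -0.04, -0.30 and -0.30). The summed level of the 9 was 1616 to 1684 CPM without Dox and 1040 to 1153 CPM with Dox. Of the 8 adipocyte markers, 2 were tested and CFD, the adipsin gene, fell (-0.78, adjusted p = 0.00169, same test). The summed level of these 8 was 45.2 to 64.8 CPM without Dox and 37.0 to 38.4 CPM with Dox. The part of these shifts in the values of the coat genes was not tested.

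The genes with a mean of at least 50 counts whose log2 CPM ran most like each called member over the 6 libraries were also listed, as a description. For PLIN2 these were DACH1, a transcription cofactor gene, CAMK2B, a kinase gene, and STARD3, a sterol transfer protein gene of late endosomes, with Pearson r of 0.997, 0.997 and 0.996. The log2 fold change of DACH1 was 4.64 and that of STARD3 was 0.56. For PLIN3 these were VOPP1, PHF19 and PDK3 (r of 0.9925, 0.992 and 0.9898), and for AUP1 they were DKC1, POLD4 and LIG1 (r of 0.994, 0.992 and 0.991). The libraries form 2 groups, so these r rest mainly on the difference between the conditions. For PLIN2, 27 of 9420 genes exceeded 0.99, which shows how many genes share such a pattern.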

How the data were processed

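Per the labels and the study's methods, 3ʹ QuantSeq libraries (the FWD kit in the labels, the REV kit in the methods) were read as single ends, demultiplexed with CASAVA 1.8.2, checked with FastQC and mapped to hg38 with STAR. HTSeq and edgeR are named in the submitters' processing notes; versions, annotation and strand setting are not given in the sources used here. The authors deposited a table of raw counts for the 6 libraries by gene symbol, which was used here, and a scaled signal for each library, used as an alternative (27 rows differ in name between files). The 5 rows that name no gene were left out; reads on no gene were 32.5% to 39.5%.

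Counts were tested with edgeR 4.0.16 in R 4.3.3 (TMM, filterByExpr, quasi-likelihood test, adjusted p under 0.05), after a test on simulated data. DESeq2 1.42.0 and limma 3.58.1 (log2 of the deposited signal + 1) were alternatives, with other scalings, filters, the exact test, the replicate number as a block, and fits that dropped 1 library each. Intervals use the standard error of the same fit. Library totals were 3394672 to 7271771 counts, and 3 counts were taken as the limit of detection. Loci are those of GENCODE 44. The members and hand-compiled lists (2 symbols matched under an older name) were chosen with earlier results of these data known. Some lists share genes, such as HILPDA and FAF2, so their counts are not independent. Named genes were the members, genes that overlap or flank them within 5 kb, up to 6 called genes a list, the lipolysis genes and the 3 closest patterns of each called member; other genes, such as DGAT1, DGAT2, UBE2G2 and the markers, were chosen after their values were seen, and the plot of lists names every called gene it shows. Some genes of the lists are not reported here.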

Additional observations from a re-analysis of the deposited data

How the results depend on the processing

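Of the log2 fold changes of the 5 tested members, those of PLIN2 and AUP1 passed the threshold in each of 15 alternatives and PLIN5 passed in none (adjusted p = 0.186 to 0.870). PLIN3 lost its call when libraries were scaled by their totals alone (-0.36, adjusted p = 0.0539, edgeR's quasi-likelihood test) and without replicate 2 of the cells without Dox. Under library totals alone FITM2 passed (0.44, adjusted p = 0.0412, same test). That scaling also shifted the median over all genes from 0.02 to 0.14 (log2), and relative to this median PLIN3 stood at -0.49 in both and FITM2 at 0.30 in both. The log2 fold changes with each library left out in turn ranged from 1.74 to 1.92 for PLIN2, -0.57 to -0.38 for PLIN3, 0.090 to 0.56 for PLIN5, 0.23 to 0.38 for FITM2, -0.67 to -0.50 for AUP1 and 0.81 to 1.06 for ABHD5. The number of genes that differed was 3125, and 1777 at an adjusted p under 0.01 by construction. Under library totals alone 2179 were higher and 1136 lower, against 1451 and 1674 as reported, and with upper-quartile scaling 1748 and 1394. With each library left out, 5 to 10 of the other droplet genes, 2 to 5 of the triacylglycerol genes and 3 to 5 of the ER-associated degradation genes passed. The cause was not tested. The replicate block raised all calls from 3125 to 3537 and the triacylglycerol genes from 3 to 6, and changed the call of no member. The numbers of the replicates gave no consistent pairing. Libraries with 1 number deviated from their group means with r of -0.0095, 0.23 and 0.086. Replicate 2 correlated best with its own number, and replicates 1 and 3 with each other's number. A block on the printed numbers cannot test such a different matching. At this depth PLIN1, PLIN4, CIDEB, CIDEC and BSCL2 could not be tested.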
